A study of Mus musculus with 30 samples.

Results

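FGF signalling and ERK feedback genes were followed through the differentiation of mouse embryonic stem cells (ESC) towards blood. The 10 genes were Fgf4, Fgf5 and Fgf8, which encode secreted ligands, the receptor gene Fgfr1, the inhibitor genes Spry2, Spry4, Spred1 and Dusp6, and the target genes Etv4 and Etv5. They were chosen by name, and all 10 were found by symbol among the 14685 genes of the deposited table. RNA was sequenced from 5 populations, each of 3 genotypes of the mouse ESC line E14, with 2 replicates in each of the 15 groups (30 samples). The populations were undifferentiated ESC, Flk1+ cells purified with magnetic beads from embryoid bodies, and 3 populations sorted on day 2 of the blast culture seeded from the Flk1+ cells. These 3 were hemogenic endothelium 1 (HE1, KIT+ CD41- Tie2+), hemogenic endothelium 2 (HE2, KIT+ CD41+ Tie2+) and hematopoietic progenitors (KIT+ CD41+ Tie2-). The genotypes were WT, Sp1ΔDBD/ΔDBD (Sp1_deltaDBD in the labels), which lacks the DNA-binding domain of the transcription factor Sp1, and Sp3-/- (Sp3KO in the labels), which lacks the related factor Sp3. Each mutant genotype was 1 ESC line, so the genotype and the line cannot be told apart. The study's methods say that the length of embryoid body culture depended on the cell line. The length behind each RNA sample is not in the labels, and one that differed between genotypes could not be told apart from the genotype either. The ESC were kept on mouse embryonic fibroblast feeder cells and passaged without them before differentiation.

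Fibroblast growth factors bind receptor tyrosine kinases at the cell surface and, through RAS and the RAF and MEK kinases, switch on the kinases ERK1 and ERK2. Active ERK induces its own inhibitors. Among them are the Sprouty and Spred proteins, which restrain signalling around RAS and RAF, and DUSP6, a cytoplasmic phosphatase that inactivates ERK. ERK activity also induces the ETS factors Etv4 and Etv5. FGF4 drives ESC out of the naive pluripotent state, Fgf5 is the usual marker of the primed epiblast, and Fgf8 and Fgfr1 are needed in the primitive streak for mesoderm to form and move.

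The values were FPKM, fragments mapped to a gene, scaled by transcript length and by all mapped fragments, so levels could be compared between genes per length, and the authors had quantile normalised them. The number of reads behind them is unknown. In each sample 398 to 1660 genes shared the lowest value, which was at most 0.0234 FPKM, and a gene there is described as listed at the lowest value, without a fold change. Groups were compared with limma on log2(FPKM + 0.1) in 1 fit of all 15 groups over 14525 genes. A gene was called at a Benjamini-Hochberg adjusted p under 0.05 over all genes tested, and log2 fold changes on the log2(FPKM + 0.1) scale are given ± their standard error (SE), with n = 2 in every group. The comparisons of the 2 mutants with WT share their WT samples. Sp3 lay between 3.38 and 7.79 FPKM in the 10 Sp3-/- samples and between 25.9 and 58.1 FPKM in the 10 WT samples. Sp1 lay between 14.8 and 40.5 FPKM in the 10 Sp1ΔDBD/ΔDBD samples and between 24.9 and 52.4 FPKM in WT, and a gene-level value is no check of a deletion that leaves part of the transcript. The populations carried their markers: the summed FPKM of 6 pluripotency genes was 1104 to 1349 in ESC and 23.8 to 99.8 in Flk1+ cells. Kdr (Flk1) was at 165 to 257 FPKM in Flk1+ cells and at 208 to 358 FPKM in HE1, so it did not set them apart. The summed FPKM of 6 endothelial genes was 994 to 1475 in HE1. That of 6 blood genes was 58.2 to 121 in HE1, 173 to 270 in HE2 and 228 to 402 in progenitors. HE1 WT replicate 1 had the highest epithelial and fibroblast sums of all samples. The summed FPKM of 4 epithelial genes was 711 there against 63.0 in replicate 2, and that of 5 fibroblast genes 282 against 35.7. It was not alone, as both sums were higher in replicate 1 in every WT and Sp1ΔDBD/ΔDBD group of the blast culture. In Sp1ΔDBD/ΔDBD HE1 they were 223 against 9.12 and 127 against 13.3. In WT HE2 the epithelial sum was 217 against 14.2, and in Sp3-/- HE2 59.5 against 39.7. In bulk RNA, fewer cells of a type and less RNA per cell cannot be told apart.

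Sp1 and Sp3 bind the GC box, GGGCGG, which reads CCGCCC on the other strand, and this motif was looked for on both strands in the 250 bases before each gene start of the RefSeq promoter table (build GRCm38.p6). Of the 10 genes, 6 were matched in that table (Fgf4, Fgf5, Dusp6, Spry2, Etv5 and Spred1), with 7 starts in all, and Fgf8, Fgfr1, Spry4 and Etv4 were not. The motif stood before 4 of these 7 starts and before 10756 (32.7%) of all 32851 starts in the table. The windows of Dusp6, Fgf5 and Spred1 are printed 5′ to 3′ on the strand of the gene with the motif in capitals, because these genes were called in a mutant below and held different numbers of it. These protein-coding genes lie on the plus strand, at chr10:99263231-99267489 (Dusp6), chr5:98254184-98277030 (Fgf5) and chr2:117121374-117182279 (Spred1) in the GENCODE annotation of GRCm38. The windows are Dusp6 at chr10:99262981-99263230, Fgf5 at chr5:98253934-98254183 and Spred1 at chr2:117120821-117121070. That of Spred1 precedes a RefSeq start that lies upstream of its GENCODE start.
Dusp6: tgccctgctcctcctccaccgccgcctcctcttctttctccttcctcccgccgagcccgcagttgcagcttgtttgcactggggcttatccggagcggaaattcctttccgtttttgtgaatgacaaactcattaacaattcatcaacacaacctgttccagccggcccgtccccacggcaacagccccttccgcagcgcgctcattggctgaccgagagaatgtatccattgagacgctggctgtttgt
Fgf5: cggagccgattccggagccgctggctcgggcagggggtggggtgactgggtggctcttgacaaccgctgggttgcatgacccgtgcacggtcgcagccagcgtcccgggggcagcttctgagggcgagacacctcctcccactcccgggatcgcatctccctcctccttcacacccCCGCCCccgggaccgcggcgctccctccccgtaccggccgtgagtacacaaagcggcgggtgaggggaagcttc
Spred1: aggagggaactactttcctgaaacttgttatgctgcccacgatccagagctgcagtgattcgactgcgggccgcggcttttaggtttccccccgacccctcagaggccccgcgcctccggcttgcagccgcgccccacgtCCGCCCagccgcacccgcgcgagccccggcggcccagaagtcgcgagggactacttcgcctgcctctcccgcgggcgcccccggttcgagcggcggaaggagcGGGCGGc
Dusp6 held 0 GC boxes in this window, Fgf5 held 1 and Spred1 held 2. Of the windows not printed, that of Fgf4 held 2, those of Etv5 held 3 and 0, and that of Spry2 held 0. Fgf4 and Etv5 were also called in a mutant. A match of letters is a description and not a site, and its absence from a window says nothing of the factor.

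In WT cells the 3 ligand genes were expressed early, Fgf4 and Fgf5 with their highest mean in ESC and Fgf8 in Flk1+ cells. Fgf4 was at 43.1 and 58.7 FPKM in ESC and at 1.42 and 1.57 FPKM in Flk1+ cells, a mean 34.1-fold lower (log2 fold change -4.98 ± 0.25, adjusted p = 7.55e-12). Fgf8 went the other way, from 0.141 and 0.0821 FPKM in ESC to 7.03 and 5.13 FPKM in Flk1+ cells (log2 fold change 4.87 ± 0.50, adjusted p = 1.36e-07). The ESC and Flk1+ samples did not overlap for either gene. Fgf5 stayed low, at 2.66 and 0.813 FPKM in ESC and 0.445 and 0.149 FPKM in Flk1+ cells, and its fall (log2 fold change -2.11 ± 0.53, adjusted p = 0.00251) was not called without ESC WT replicate 1 (adjusted p = 0.0741) or Flk1+ WT replicate 2 (0.0568). From HE1 onwards Fgf4, Fgf5 and Fgf8 were listed at or near the lowest value in every genotype, and the highest sample there was Fgf5 in HE1 Sp1ΔDBD/ΔDBD replicate 2, at 0.0980 FPKM. The genotypes are therefore compared for the ligands only in ESC and Flk1+ cells.

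The receptor gene Fgfr1 had its highest WT levels in Flk1+ cells and HE1. It was at 21.7 and 18.9 FPKM in WT ESC, 49.3 and 55.0 FPKM in Flk1+ cells, 46.5 and 49.3 FPKM in HE1, 16.7 and 19.4 FPKM in HE2, and 9.29 and 6.30 FPKM in progenitors. It rose from ESC to Flk1+ cells (log2 fold change 1.36 ± 0.18, adjusted p = 3.49e-06), fell from HE1 to HE2 (-1.41 ± 0.18, adjusted p = 3.14e-05) and fell again from HE2 to progenitors (-1.22 ± 0.18, adjusted p = 9.62e-05). Flk1+ cells and HE1 did not differ beyond the threshold (-0.12 ± 0.18, adjusted p = 0.610), except when corrected for GC content and gene length, where HE1 was lower (-0.43, adjusted p = 0.00874). The ESC and HE2 samples overlapped.

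The target and inhibitor genes mostly fell along the path, each at its own pace. Etv5 had the highest level of the 10 genes per length, at 96.4 and 119 FPKM in WT ESC, and was at 21.3 and 19.5 FPKM in Flk1+ cells, 5.44 and 2.89 FPKM in HE1, 1.70 and 1.56 FPKM in HE2, and 1.62 and 0.739 FPKM in progenitors. It fell at each of the first 3 steps (log2 fold changes -2.38, -2.33 and -1.24, adjusted p = 2.09e-05, 2.90e-05 and 0.0214), and HE2 and progenitors overlapped. Spry4, a Sprouty inhibitor, was at 40.5 and 38.5 FPKM in ESC, 3.76 and 4.21 FPKM in Flk1+ cells, 3.23 and 2.05 FPKM in HE1, 0.781 and 0.260 FPKM in HE2, and 0.172 and 0.132 FPKM in progenitors. It fell from ESC to Flk1+ cells (-3.28 ± 0.52, adjusted p = 2.98e-05) and from HE1 to HE2 (-2.25 ± 0.52, adjusted p = 0.00461). Etv4, the other ETS factor, was at 20.4 and 25.6 FPKM in ESC, 7.0 and 6.71 FPKM in Flk1+ cells, 3.24 and 2.14 FPKM in HE1, 1.39 and 0.633 FPKM in HE2, and 2.20 and 0.643 FPKM in progenitors, where the last 3 populations lay close and HE1 and progenitors overlapped.

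Spry2 declined less than Spry4. It was at 26.9 and 23.1 FPKM in WT ESC, 10.3 and 11.6 FPKM in Flk1+ cells, 5.37 and 3.57 FPKM in HE1, 6.21 and 9.55 FPKM in HE2, and 4.16 and 4.57 FPKM in progenitors, and it fell at the first 2 steps only (-1.18 ± 0.32 and -1.30 ± 0.32, adjusted p = 0.00471 and 0.00234). Dusp6 was at 28.6 and 22.5 FPKM in ESC, 20.5 and 13.6 FPKM in Flk1+ cells, 21.6 and 20.2 FPKM in HE1, 10.9 and 11.6 FPKM in HE2, and 6.64 and 8.87 FPKM in progenitors. None of its steps between neighbouring WT populations was called, but that from HE1 to HE2 (-0.89 ± 0.34, adjusted p = 0.0664) was when corrected for GC content and gene length (-1.03, adjusted p = 0.0294). Spred1, which restrains RAF activation, peaked in Flk1+ cells at 29.7 and 32.4 FPKM, against 18.3 and 18.9 FPKM in ESC, 12.9 and 11.3 FPKM in HE1, 18.3 and 20.9 FPKM in HE2, and 12.2 and 18.8 FPKM in progenitors.

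Over the WT steps, 3 of the 10 genes rose and 6 fell from ESC to Flk1+ cells, beside 27.4% and 24.7% of all tested genes. From Flk1+ cells to HE1, 0 rose and 7 fell, beside 23.5% and 29.5%. From HE1 to HE2, 1 rose (Spred1) and 3 fell, beside 11.7% and 10.2%. From HE2 to progenitors, 0 rose and 1 fell (Fgfr1), beside 5.46% and 7.78%. Of these 21 calls 13 held under every alternative tried. The other 8 were Fgf5, Etv4 and Spred1 from ESC to Flk1+ cells, Fgf5 and Etv4 from Flk1+ cells to HE1, and Spry4, Etv5 and Spred1 from HE1 to HE2. Etv4 was lost at the first step without ESC WT replicate 2 (adjusted p = 0.0760) or Flk1+ WT replicate 2 (0.0553), and Spred1 without Flk1+ WT replicate 2 (0.0666). At the second step Fgf5 was lost without Flk1+ WT replicate 1 (0.242) or HE1 WT replicate 2 (0.169) and with a pseudocount of 1 (0.374), and Etv4 on leaving out each of the 4 samples in turn (0.0564 to 0.219). From HE1 to HE2, without HE1 WT replicate 1, Spry4 had an adjusted p of 0.0550, Etv5 of 0.254 and Spred1 of 0.0765. Without HE2 WT replicate 2 these were 0.0777, 0.0901 and 0.166. Etv5 was also lost without HE2 WT replicate 1 (0.0690), and Spred1 without HE1 WT replicate 2 (0.165) or HE2 WT replicate 1 (0.0713).

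**Figure D1:**
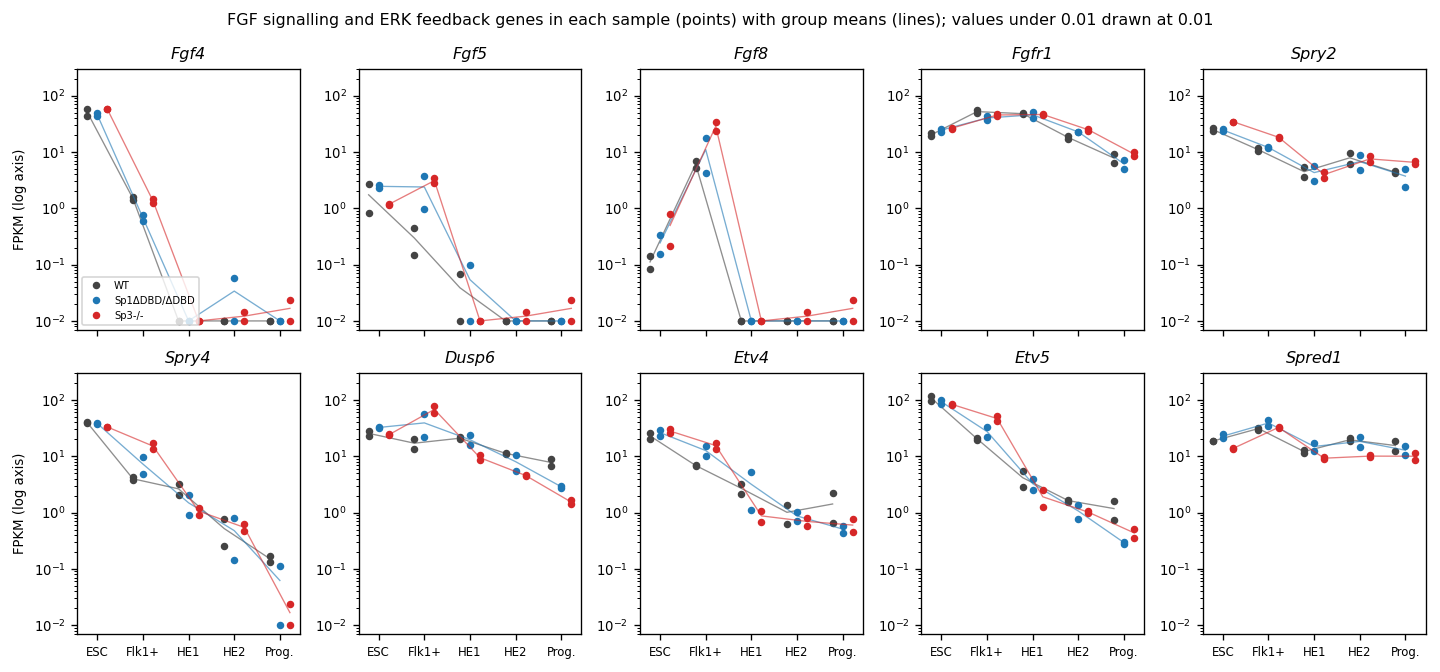
FPKM of the 10 genes on a log axis in the 5 populations, with a point for each replicate, coloured by genotype, and a line through the group means, with values under 0.01 drawn at 0.01. Fgf4, Spry4, Etv4 and Etv5 start high in ESC and fall, Fgf8 peaks in Flk1+ cells, and the 3 ligands lie near the floor of the axis from HE1 onwards.

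In undifferentiated ESC, the genes did not pass the test in either mutant. Of the 10 genes, 0 were called in Sp1ΔDBD/ΔDBD ESC, beside 6.06% of all tested genes, and 0 in Sp3-/- ESC, beside 11.3%. At an unadjusted p under 0.05, 0 of the 10 passed in Sp1ΔDBD/ΔDBD and 1 (Fgf8) in Sp3-/- ESC. Fgf4 was at 42.8 and 48.9 FPKM in Sp1ΔDBD/ΔDBD and at 57.5 and 57.7 FPKM in Sp3-/- ESC, around the WT values of 43.1 and 58.7. Etv5 was at 83.7 and 101 FPKM in Sp1ΔDBD/ΔDBD and at 85.5 and 82.4 FPKM in Sp3-/- ESC, where the Sp3-/- samples lay below both WT samples by a log2 fold change of -0.35 ± 0.37 (adjusted p = 0.634). Spry2 was at 34.6 and 34.5 FPKM in Sp3-/- ESC, above both WT samples, with a log2 fold change of 0.47 ± 0.32 (adjusted p = 0.411). Fgf8 was at 0.777 and 0.215 FPKM in Sp3-/- ESC against 0.141 and 0.0821 FPKM in WT (1.33 ± 0.50, adjusted p = 0.0969), and was called without Sp3-/- replicate 2 (adjusted p = 0.0434).

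In Sp3-/- Flk1+ cells, 2 ligand genes, 2 inhibitor genes and a target gene of the pathway were higher than in WT cells. The 5 genes that rose were Fgf5, Fgf8, Spry4, Dusp6 and Etv5, and 0 fell, beside 12.6% of all genes called in this comparison. The median log2 fold change of the 10 genes was 1.17, against 0 over all genes tested, and 8 of the 10 lay above 0. Dusp6 was at 77.3 and 58.4 FPKM in Sp3-/- and 20.5 and 13.6 FPKM in WT, 3.98-fold higher in the mean (log2 fold change 2.0 ± 0.34, adjusted p = 0.00108). Fgf8 was at 33.6 and 23.6 FPKM in Sp3-/- and 7.03 and 5.13 FPKM in WT, 4.71-fold higher (2.21 ± 0.50, adjusted p = 0.00736). Fgf5 was at 3.38 and 2.81 FPKM in Sp3-/- and 0.445 and 0.149 FPKM in WT, 10.4-fold higher (3.11 ± 0.53, adjusted p = 0.00119). Both mutant samples lay above both WT samples for each of these genes.

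The Sprouty inhibitor Spry4 was at 17.0 and 13.3 FPKM in Sp3-/- Flk1+ cells and 3.76 and 4.21 FPKM in WT, 3.81-fold higher (1.89 ± 0.52, adjusted p = 0.0227). Etv5 was at 51.0 and 42.4 FPKM against 21.3 and 19.5 FPKM, 2.29-fold higher (1.19 ± 0.37, adjusted p = 0.0398). Etv4 and Spry2 also lay above WT in both samples but did not pass the test. Etv4 was at 17.5 and 13.4 FPKM against 7.0 and 6.71 FPKM (1.15 ± 0.54, adjusted p = 0.179), and Spry2 at 18 and 18.6 FPKM against 10.3 and 11.6 FPKM (0.74 ± 0.32, adjusted p = 0.148). Fgf4 (-0.14 ± 0.25), Fgfr1 (-0.20 ± 0.18) and Spred1 (0.07 ± 0.23) differed from WT by less than their SE or little more.

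The fit shared its estimate of spread across all 15 groups. With the 6 Flk1+ samples fitted alone, Dusp6, Fgf5 and Fgf8 were no longer called in Sp3-/- Flk1+ cells (adjusted p = 0.0727, 0.0655 and 0.116), Spry4 and Etv5 stayed called, and Spry2 (0.0256) and Etv4 (0.0496) became called. Dusp6 and Fgf5 stayed called whichever single sample was left out. Fgf8 was lost without WT replicate 2 (0.0971) or Sp3-/- replicate 1 (0.0956). Spry4 was lost on leaving out each of the 4 samples in turn (0.0672 to 0.169), and so was Etv5 (0.0990 to 0.240), which was also lost when corrected for GC content and gene length (0.0628).

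Other cell type markers moved in the same samples. T (Brachyury), Eomes and Mesp1, transcription factors of the primitive streak and early mesoderm, were at 128 and 112, 166 and 154, and 101 and 146 FPKM in the Sp3-/- samples, against 41.9 and 31.6, 46.6 and 41.9, and 51.7 and 39.1 FPKM in WT. Of the 5 streak and mesoderm markers in the table Eomes and Mesp1 were called higher, and T was not (1.72 ± 0.58, adjusted p = 0.0572). The summed FPKM of these 5 markers was 614 and 659 in Sp3-/-, 447 and 442 in Sp1ΔDBD/ΔDBD, and 355 and 343 in WT, and none of them was at the lowest value. The 6 pluripotency markers did not all lie on the same side of WT. Their summed FPKM was 97.0 and 99.8 in Sp3-/- against 46.6 and 35.5 in WT, most of it Pou5f1, at 82.1 and 83.9 FPKM against 27.4 and 19.6 FPKM and not called (adjusted p = 0.106). Sox2 was called higher and Klf4 lower, and Nanog was at 8.72 and 9.35 FPKM against 11.2 and 10.7 FPKM. The summed FPKM of the 4 primed epiblast markers was 124 and 109 against 68.0 and 55.2, with Otx2, a factor of the primed epiblast, called higher (3.03 ± 0.41, adjusted p = 0.000210). Of the 6 endothelial markers 3 (Cdh5, Tek and Sox18) were called higher and the blood marker Gata1 lower, while Kdr itself was at 171 and 190 FPKM against 192 and 209 FPKM. No marker of cardiac muscle (4 genes), fibroblasts (5), epithelium (4) or endoderm (1) was called in Flk1+ cells of either mutant. The fibroblast sum was 2.73 and 3.57 in Sp3-/- and 3.18 and 3.40 in Sp1ΔDBD/ΔDBD against 11.2 and 16.2 in WT. The epithelial sum was 144 and 125 in Sp3-/- and 188 and 115 in Sp1ΔDBD/ΔDBD against 284 and 299 in WT, so that for both lists the WT samples lay above all mutant samples. The part that a different mix of cells, or a different length of embryoid body culture, had in the higher FGF genes was not tested.

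**Figure D2:**
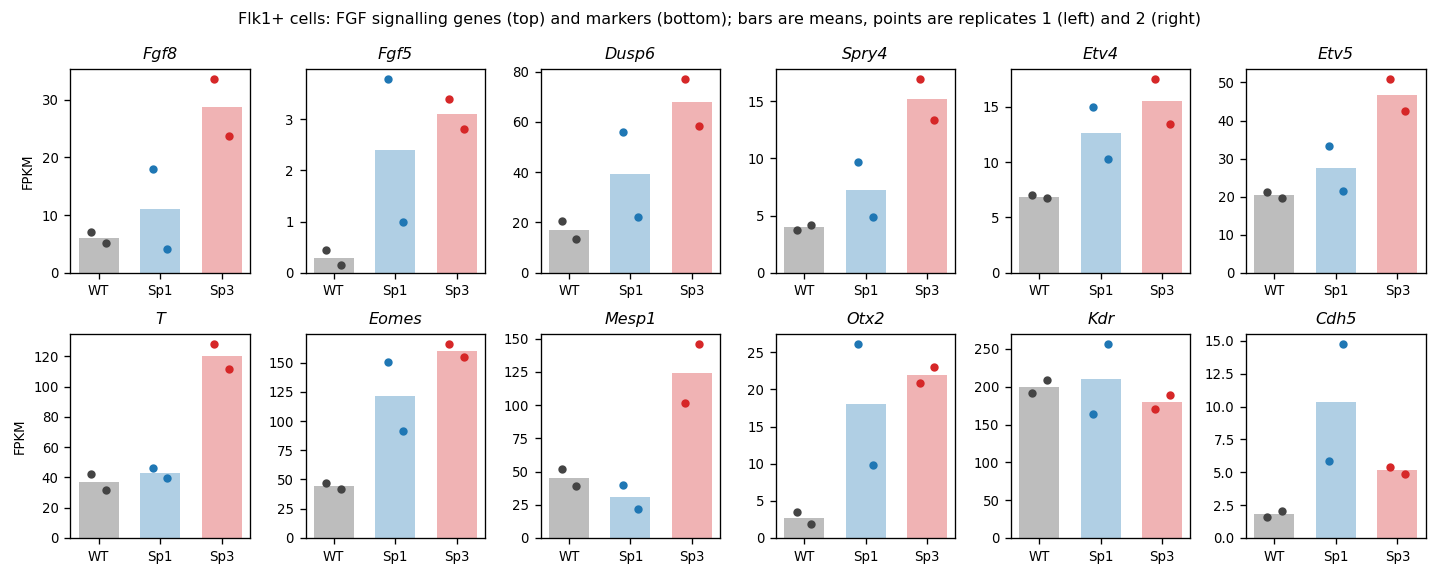
FPKM in Flk1+ cells of 6 FGF signalling genes (top row) and 6 markers (bottom row), with bars for the means of the 2 replicates and points for the replicates, labelled WT, Sp1 (Sp1ΔDBD/ΔDBD) and Sp3 (Sp3-/-). The Sp3-/- points lie above both WT points for the 6 genes of the top row and for T, Eomes, Mesp1, Otx2 and Cdh5, and not for Kdr.

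In Sp1ΔDBD/ΔDBD Flk1+ cells, Fgf5 rose and Fgf4 fell, and 8 of the 10 genes were not called, beside 5.54% of all tested genes that were. Fgf5 was at 3.79 and 0.984 FPKM against 0.445 and 0.149 FPKM in WT, 8.05-fold higher in the mean (log2 fold change 2.48 ± 0.53, adjusted p = 0.00802). Fgf4 was at 0.758 and 0.597 FPKM against 1.42 and 1.57 FPKM, 2.21-fold lower (-1.04 ± 0.25, adjusted p = 0.0176). The 2 mutant samples disagreed for several genes: Fgf8 was at 17.9 and 4.17 FPKM, Dusp6 at 56.1 and 22.2 FPKM, and Spry4 at 9.64 and 4.89 FPKM, so that the Fgf8 samples spanned those of WT. Dusp6 lay above WT in both (1.07 ± 0.34, adjusted p = 0.0689), and was called without Sp1ΔDBD/ΔDBD replicate 2 (adjusted p = 0.00455). Cell type markers differed between the same 2 samples, with Cdh5 at 5.84 and 14.8 FPKM and Pou5f1 at 39.7 and 14.4 FPKM. Against WT, 5 of the 6 endothelial markers and 1 of the 4 primed epiblast markers (Otx2) were called higher, and the pluripotency marker Klf4 lower. Otx2 was at 26.2 and 9.82 FPKM against 3.53 and 1.92 FPKM in WT. The calls of Fgf5 and Fgf4 were both lost with the Flk1+ samples fitted alone (adjusted p = 0.132 for Fgf5 and 0.0629 for Fgf4). Fgf5 was also lost without WT replicate 2 (0.167) or Sp1ΔDBD/ΔDBD replicate 1 (0.164), and Fgf4 without WT replicate 1 (0.0785), WT replicate 2 (0.163) or Sp1ΔDBD/ΔDBD replicate 2 (0.148).

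In the 3 populations of the blast culture Dusp6 was lower in Sp3-/- than in WT cells, the opposite of Flk1+ cells. In HE1 Dusp6 was at 10.4 and 8.5 FPKM in Sp3-/- and 21.6 and 20.2 FPKM in WT, 2.22-fold lower (log2 fold change -1.15 ± 0.34, adjusted p = 0.0334). In HE2 it was at 4.62 and 4.49 FPKM against 10.9 and 11.6 FPKM, 2.47-fold lower (-1.29 ± 0.34, adjusted p = 0.0162). In progenitors it was at 1.67 and 1.40 FPKM against 6.64 and 8.87 FPKM, 5.06-fold lower (-2.26 ± 0.34, adjusted p = 0.000534). The samples of the 2 genotypes did not overlap in any of the 3 populations.

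In Sp1ΔDBD/ΔDBD cells Dusp6 was at 23.4 and 15.9 FPKM in HE1, on either side of WT (-0.12 ± 0.34, adjusted p = 0.906), at 10.7 and 5.37 FPKM in HE2 (-0.57 ± 0.34, adjusted p = 0.333), and at 2.74 and 3.01 FPKM in progenitors, 2.70-fold lower than in WT (-1.39 ± 0.34, adjusted p = 0.0137). Dusp6 was thus lower than in WT in the progenitors of both mutants, each set against the same 2 WT samples. The HE1 and HE2 calls in Sp3-/- cells were lost on leaving out each of the 4 samples of the comparison in turn (adjusted p from 0.0836 to 0.214 in HE1 and from 0.0596 to 0.0946 in HE2). The progenitor call in Sp3-/- cells was lost only with the progenitors fitted alone (0.0615). That in Sp1ΔDBD/ΔDBD cells was lost in the same fit (0.102), without WT replicate 2 (0.0998) and without Sp1ΔDBD/ΔDBD replicate 1 (0.0795).

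The target gene Etv5 was at 0.282 and 0.303 FPKM in Sp1ΔDBD/ΔDBD progenitors and 1.62 and 0.739 FPKM in WT, 4.03-fold lower (-1.61 ± 0.37, adjusted p = 0.00929). In Sp3-/- progenitors it was at 0.514 and 0.359 FPKM, also below both WT samples, and was not called (-1.18 ± 0.37, adjusted p = 0.0521). In HE1 Etv5 was at 2.56 and 1.26 FPKM in Sp3-/- against 5.44 and 2.89 FPKM in WT (-1.10 ± 0.37, adjusted p = 0.0604). Etv4 in the same Sp3-/- HE1 samples was at 1.05 and 0.693 FPKM against 3.24 and 2.14 FPKM (-1.52 ± 0.54, adjusted p = 0.0793). The levels of both genes were low at these stages. The Etv5 call in Sp1ΔDBD/ΔDBD progenitors was lost with a pseudocount of 1 (adjusted p = 0.0964), with the progenitors fitted alone (0.170), without WT replicate 1 (0.143) and without Sp1ΔDBD/ΔDBD replicate 1 (0.0565). In Sp3-/- progenitors Etv5 was called without WT replicate 2 (0.0230). Etv4 lies on chromosome 11, whose genes had a median log2 fold change of -0.36 in Sp1ΔDBD/ΔDBD progenitors and -0.24 in Sp3-/- HE1, against 0.05 and 0.07 for the genes of other chromosomes.

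Spred1 fell in Sp3-/- HE2, where it was at 10.6 and 9.56 FPKM against 18.3 and 20.9 FPKM in WT, 1.95-fold lower (-0.96 ± 0.23, adjusted p = 0.00964). In Sp1ΔDBD/ΔDBD HE2 the samples, at 14.3 and 22.4 FPKM, spanned those of WT. The call was lost with HE2 fitted alone (adjusted p = 0.126), without WT replicate 2 (0.0516) and without Sp3-/- replicate 2 (0.0854). Spry4 was listed at the lowest value in both Sp3-/- progenitor samples and in Sp1ΔDBD/ΔDBD progenitor replicate 2, and was at 0.172 and 0.132 FPKM in WT progenitors, so that no fold is given there. In HE1 Spry4 was at 1.22 and 0.910 FPKM in Sp3-/- against 3.23 and 2.05 FPKM in WT (-1.21 ± 0.52, adjusted p = 0.144).

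Of the 10 genes, 0 were called in Sp1ΔDBD/ΔDBD HE1 and 0 in HE2, beside 10% and 9.67% of all tested genes, and 2 (Dusp6 and Etv5) in progenitors, beside 8.78%. At an unadjusted p under 0.05, 0 passed in HE1 and 0 in HE2. In Sp3-/- cells 1 was called in HE1 (Dusp6), beside 10.9%, 2 in HE2 (Dusp6 and Spred1), beside 13.8%, and 1 in progenitors (Dusp6), beside 8.65%. Over the 5 populations, 4 of 50 tests against WT were called in Sp1ΔDBD/ΔDBD, where 5.54% to 10% of all tested genes were called in a population. In Sp3-/- cells 9 of 50 were called, beside 8.65% to 13.8% of all tested genes. Fgfr1, Spry2 and Etv4 were called in no population of either mutant, although Fgfr1 was called lower in Sp1ΔDBD/ΔDBD Flk1+ cells when corrected for GC content and gene length (-0.46, adjusted p = 0.0352). None of these 13 calls was kept under every alternative: 11 were lost when each population was fitted alone, 3 of them only there, and Spry4 and Etv5 in Sp3-/- Flk1+ cells were lost when single samples were left out. Epithelial and fibroblast markers differed between the same blast-culture samples, with higher sums in replicate 1 than in replicate 2 of WT and Sp1ΔDBD/ΔDBD cells. In progenitors the summed FPKM of 4 epithelial genes was 138 and 34.5 in WT, 64.6 and 6.86 in Sp1ΔDBD/ΔDBD, and 35.9 and 31.1 in Sp3-/-, and that of 5 fibroblast genes was 55.2 and 16.1, 13.8 and 3.67, and 8.47 and 10.7. In HE1 the epithelial sum was 711 and 63.0 in WT, 223 and 9.12 in Sp1ΔDBD/ΔDBD, and 72.6 and 25.6 in Sp3-/-, and in HE2 it was 217 and 14.2, 120 and 8.48, and 59.5 and 39.7. The blood and endothelial lists also moved. In HE1 6 blood markers summed to 58.2 and 78.4 FPKM in WT, 62.2 and 86.6 in Sp1ΔDBD/ΔDBD, and 121 and 111 in Sp3-/-. Myb was called higher in Sp3-/- HE1. In HE2 the blood sums of Sp3-/- and WT overlapped. In HE2 6 endothelial markers summed to 637 and 736 FPKM in WT, 626 and 513 in Sp1ΔDBD/ΔDBD, and 473 and 495 in Sp3-/-, with none called. Without WT replicate 1, where the epithelial and fibroblast sums were highest, the log2 fold change of Dusp6 in Sp3-/- cells was -1.10 in HE1 and -1.33 in HE2. With that sample it was -1.15 and -1.29, and both calls were lost without it, as given above. The epithelial and fibroblast markers were also present in WT replicate 2. The part of these marker lists in the results was not tested.

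**Figure D3:**
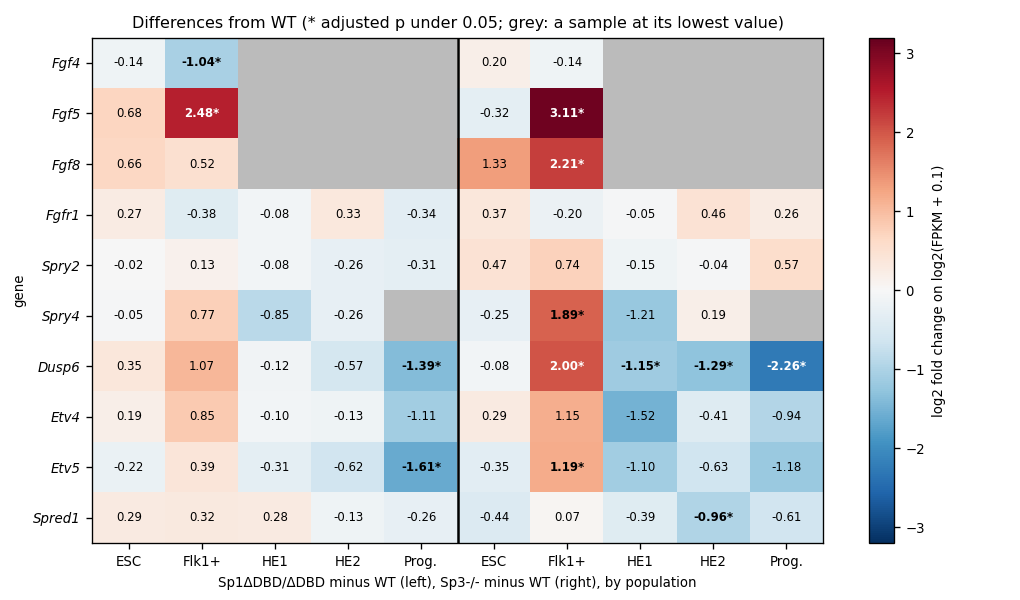
Log2 fold changes of the 10 genes on the log2(FPKM + 0.1) scale in each mutant minus WT, by population, with red for higher and blue for lower, an asterisk for an adjusted p under 0.05 and grey where a sample was at its lowest value. The Sp3-/- Flk1+ column holds 5 positive calls, and the Dusp6 row is positive in Flk1+ cells and negative in the 3 later populations of Sp3-/- cells.

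**Figure D4:**
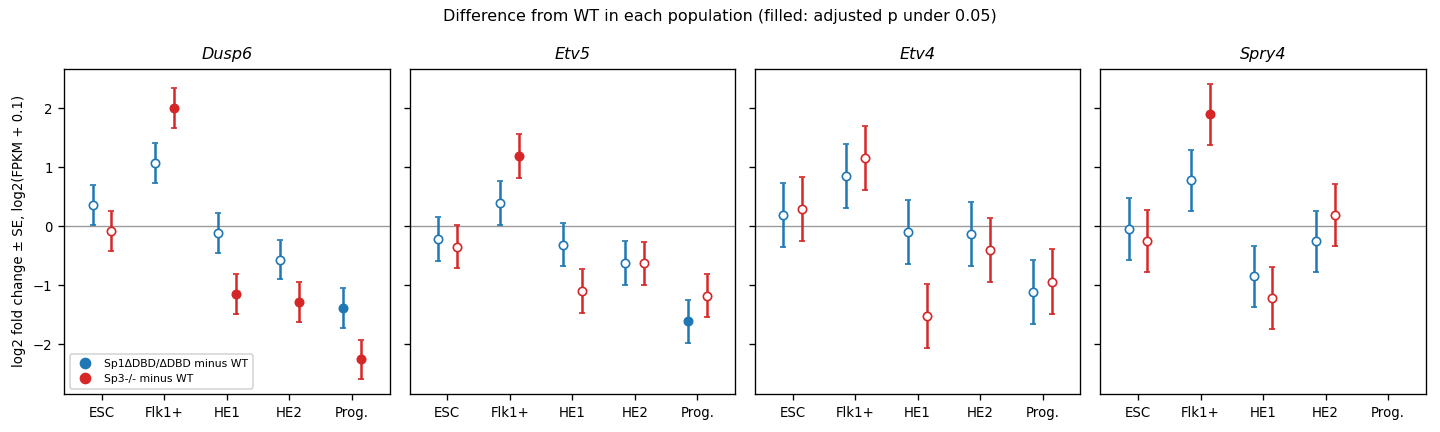
Log2 fold change ± SE against WT of Dusp6, Etv5, Etv4 and Spry4 in each population for Sp1ΔDBD/ΔDBD and Sp3-/- cells, filled where the adjusted p was under 0.05. Dusp6 in Sp3-/- cells lies at -0.08 in ESC, 2.0 in Flk1+ cells and -2.26 in progenitors, and Spry4 has no point in progenitors because samples there were at the lowest value.

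Whether a difference from WT changed between populations was tested against the difference in ESC. For Sp3-/-, 2 of the 10 genes had a larger difference in Flk1+ cells than in ESC, beside 1.48% of all genes. They were Fgf5 (difference of log2 fold changes 3.43 ± 0.75, adjusted p = 0.0249) and Dusp6 (2.08 ± 0.47, adjusted p = 0.0310). In HE1 and HE2 0 genes were called, beside 2.16% and 0.544%, with 2 and 1 at an unadjusted p under 0.05, and in progenitors 1 was, beside 1.34%, namely Dusp6 (-2.18 ± 0.47, adjusted p = 0.0309). For Sp1ΔDBD/ΔDBD 0 genes were called in Flk1+ cells, HE1, HE2 or progenitors, beside 1.74%, 3.99%, 2.62% and 3.15%, and 6 of these 40 tests had an unadjusted p under 0.05. Each of the 3 calls was lost on leaving out most single samples. For Fgf5 these were ESC WT replicate 1 (0.112), the ESC Sp3-/- replicates (0.0799 and 0.0963), Flk1+ WT replicate 2 (0.168) and the Flk1+ Sp3-/- replicates (0.117 and 0.0633). For Dusp6 in Flk1+ cells they were the same 6 samples (0.0538 to 0.185), and for Dusp6 in progenitors 7 of the 8 samples (0.0527 to 0.109), all but progenitor WT replicate 1.

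Set directly against each other, the mutants differed in few of the 10 genes. In ESC 0 were called, beside 9.67% of all genes, and 1 (Spred1) had an unadjusted p under 0.05. In Flk1+ cells 2 were higher in Sp3-/- than in Sp1ΔDBD/ΔDBD, beside 7.39%. Fgf8 was at 33.6 and 23.6 FPKM against 17.9 and 4.17 FPKM (1.69 ± 0.50, adjusted p = 0.0449), and Fgf4 at 1.22 and 1.49 FPKM against 0.758 and 0.597 FPKM (0.91 ± 0.25, adjusted p = 0.0323). In HE1 Dusp6 was lower in Sp3-/- (-1.03 ± 0.34, adjusted p = 0.0477), beside 13.6% of genes called, and in HE2 Spred1 was lower (-0.83 ± 0.23, adjusted p = 0.0179), beside 15.9%. In progenitors the receptor gene Fgfr1 was higher in Sp3-/-, at 8.42 and 9.96 FPKM against 4.92 and 7.35 FPKM (0.60 ± 0.18, adjusted p = 0.0373), beside 11.6%. Dusp6 in progenitors, at 1.67 and 1.40 FPKM in Sp3-/- and 2.74 and 3.01 FPKM in Sp1ΔDBD/ΔDBD, was not called.

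Each of these 5 calls was lost with its population fitted alone and without some single sample. Corrected for GC content and gene length, the difference was 0.98 for Fgf8 in Flk1+ cells (adjusted p = 0.240), -0.46 for Spred1 in HE2 (0.198) and 0.39 for Fgfr1 in progenitors (0.0646). Corrected for the chromosome median, Fgf4 in Flk1+ cells (0.0519) and Fgfr1 in progenitors (0.0745) were lost. Without Flk1+ Sp1ΔDBD/ΔDBD replicate 2 the adjusted p was 0.693 for Fgf8 and 0.309 for Fgf4. Without Flk1+ Sp3-/- replicate 1 it was 0.298 and 0.10, and without replicate 2 it was 0.107 and 0.216. Dusp6 in HE1 was lost on leaving out each of the 4 samples in turn (0.0706 to 0.252). Spred1 in HE2 was lost without Sp1ΔDBD/ΔDBD replicate 2 (0.254), Sp3-/- replicate 1 (0.0523) or Sp3-/- replicate 2 (0.130), and Fgfr1 in progenitors without Sp1ΔDBD/ΔDBD replicate 1 (0.353), Sp3-/- replicate 1 (0.0669) or Sp3-/- replicate 2 (0.247).

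The other genes of the pathway came from a list of 70 ligands, receptors, adaptors, kinases, inhibitors and ERK targets, of which 53 were tested. In Sp3-/- Flk1+ cells 11 of the 53 were called, 5 higher and 6 lower, beside 12.6% of all genes. Of the 14 inhibitors tested 4 were called higher and 0 lower, all phosphatases of the DUSP family: Dusp2 (1.48 ± 0.32), Dusp4 (1.05 ± 0.33), Dusp5 (2.09 ± 0.46) and Dusp7 (0.72 ± 0.17). Dusp5, which inactivates ERK in the nucleus, was at 5.61 and 5.38 FPKM against 1.55 and 0.940 FPKM in WT (adjusted p = 0.00655). The median log2 fold change of the 14 inhibitors was 0.33, that of all genes tested 0. Of the 7 ERK targets tested 0 were called in these cells, and of the 8 ligands 0 were higher and 1 was lower (Fgf11). Among the DUSP genes, Dusp7 was called higher in every population of Sp3-/- cells, so its difference was not particular to Flk1+ cells. Dusp2, Dusp4 and Dusp5 were called higher in Flk1+ cells only.

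Of the 5 receptors and co-receptors tested, Fgfr2 and Fgfr3 were called lower in Sp3-/- Flk1+ cells. Fgfr2 was at 2.32 and 2.61 FPKM in Sp3-/- and 19.5 and 29.2 FPKM in WT Flk1+ cells (-3.23 ± 0.60, adjusted p = 0.00213), and Fgfr3 at 0.524 and 0.685 FPKM against 2.78 and 3.2 FPKM (-2.14 ± 0.53, adjusted p = 0.0127). The mutant and WT samples were far apart for both, while Fgfr1 in the same samples was at 43.9 and 46.9 FPKM against 49.3 and 55.0 FPKM. Fgfrl1, a receptor-like gene without a kinase domain, was at 13.1 and 11.0 FPKM against 9.36 and 8.48 FPKM (0.43 ± 0.29, adjusted p = 0.389). Of the 19 adaptor and kinase genes 1 was called higher (Map2k2, which encodes MEK2) and 3 lower. These were the receptor adaptor Frs2, the kinase gene Braf and Mapk3 (ERK1), which was at 40.6 and 45.3 FPKM against 67.8 and 73.9 FPKM (-0.72 ± 0.13, adjusted p = 0.00142). In Sp1ΔDBD/ΔDBD Flk1+ cells 5 of the 53 were called, 2 higher (Spred3 and Dusp2) and 3 lower (Fgfr2, Fgf11 and Mapk3), beside 5.54% of all genes. Fgfr2 was lower there too, at 3.48 and 6.70 FPKM (-2.28 ± 0.60, adjusted p = 0.0300), as was the intracellular factor Fgf11 (-1.72 ± 0.44, adjusted p = 0.0266).

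Ligand genes outside the 10 genes were also expressed. In Flk1+ cells Fgf3 was at 54.4 and 56.1 FPKM in WT, 42.6 and 65.3 FPKM in Sp1ΔDBD/ΔDBD, and 52.7 and 58.1 FPKM in Sp3-/-. Fgf10 there was at 14.8 and 16.2 FPKM in WT, 38.5 and 26.4 FPKM in Sp1ΔDBD/ΔDBD, and 32.1 and 26.2 FPKM in Sp3-/-. Both mutants thus lay above WT in Flk1+ cells, but Fgf10 was called in no population of either mutant. In WT HE2 Fgf10 was at 10.8 and 6.28 FPKM. Fgf15 in Flk1+ cells was at 28.7 and 27.7 FPKM in WT, 13.8 and 19.4 FPKM in Sp1ΔDBD/ΔDBD, and 19.3 and 22.2 FPKM in Sp3-/-, and was not called. In blast culture the levels of Fgf3 were below those in Flk1+ cells in WT. Fgf3 was at 0.528 and 0.516 FPKM in WT HE1 and at 8.58 and 5.09 FPKM in Sp3-/- HE1 (3.43 ± 0.33, adjusted p = 1.65e-05). It was at 5.28 and 3.58 FPKM in WT HE2 and at 43.3 and 30.1 FPKM in Sp3-/- HE2 (3.02 ± 0.33, adjusted p = 3.26e-05), and at 7.38 and 7.69 FPKM in WT and 42.9 and 31.1 FPKM in Sp3-/- progenitors (2.26 ± 0.33, adjusted p = 0.000509). In Sp1ΔDBD/ΔDBD HE2 it was at 7.62 and 14.2 FPKM (1.24 ± 0.33, adjusted p = 0.0235). Fgf15 was at 2.27 and 1.53 FPKM in Sp3-/- HE2 against 0.229 and 0.104 FPKM in WT (2.92 ± 0.63, adjusted p = 0.00536), and Fgf17 was listed at the lowest value in both Sp3-/- progenitor samples against 0.704 and 0.460 FPKM in WT.

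In the other populations the list's calls numbered 1, 4, 3 and 5 of 53 in Sp1ΔDBD/ΔDBD ESC, HE1, HE2 and progenitors, beside 6.06%, 10%, 9.67% and 8.78% of all genes. In Sp3-/- cells they numbered 5, 5, 6 and 4, beside 11.3%, 10.9%, 13.8% and 8.65%. In ESC 1 of the 53 was lower in Sp1ΔDBD/ΔDBD (Fgf1), and in Sp3-/- 3 were higher (Map2k2, Dusp7 and Phlda1) and 2 lower (Fgf1 and Dusp2). The ligand gene Fgf1 was at 1.89 and 2.68 FPKM in WT ESC, 0.801 and 0.871 FPKM in Sp1ΔDBD/ΔDBD (-1.33 ± 0.31, adjusted p = 0.0143) and 0.993 and 0.976 FPKM in Sp3-/- (-1.12 ± 0.31, adjusted p = 0.0263). Phlda1, an ERK-responsive gene, was at 1.58 and 1.78 FPKM in Sp3-/- ESC against 0.908 and 0.643 FPKM in WT (1.04 ± 0.24, adjusted p = 0.00902).

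In Sp1ΔDBD/ΔDBD HE1 3 were higher (Nras, Map2k1 and Il17rd) and 1 lower (Ier3). In HE2 2 were higher (Map2k1 and Fgf3) and 1 lower (Fos), and in progenitors 2 were higher (Nras and Map2k1) and 3 lower (Spred2, Dusp1 and Fos). In Sp3-/- HE1 2 were higher (Fgf3 and Dusp7) and 3 lower (Spred2, Dusp1 and Fos). In HE2 5 were higher (Fgf3, Fgf15, Map2k2, Dusp7 and Phlda1) and 1 lower (Spred2), and in progenitors 2 were higher (Fgf3 and Dusp7) and 2 lower (Fgf17 and Spred2). Fos, an immediate early target of ERK, was at 59.2 and 66.0 FPKM in WT HE1 and 27.2 and 24.3 FPKM in Sp3-/- HE1 (-1.28 ± 0.40, adjusted p = 0.0450). In progenitors Fos was at 4.29 and 6.22 FPKM in Sp1ΔDBD/ΔDBD against 19.3 and 22.4 FPKM in WT (-1.99 ± 0.40, adjusted p = 0.00360), and in HE2 at 11.2 and 10.2 FPKM against 24.9 and 28.2 FPKM (-1.30 ± 0.40, adjusted p = 0.0445). The inhibitor Spred2 was at 1.17 and 1.37 FPKM in Sp1ΔDBD/ΔDBD progenitors against 3.69 and 3.03 FPKM in WT (-1.33 ± 0.19, adjusted p = 0.000241). In Sp1ΔDBD/ΔDBD HE1, Il17rd, an inhibitor of FGF signalling also called Sef, was at 3.42 and 7.54 FPKM against 2.90 and 2.33 FPKM (0.94 ± 0.26, adjusted p = 0.0293), and the early response gene Ier3 was at 1.96 FPKM and at the lowest value against 5.68 and 4.45 FPKM.

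The patterns of the 10 genes were compared by Pearson's r of log2(FPKM + 0.1) over the 15 group means, as a description. The group means share ESC lines, cultures and the quantile normalisation, so they are not 15 independent samples. From HE1 onwards the means of Fgf4, Fgf5 and Fgf8 lay at or near the lowest value. Their r values therefore tell little of changes among those groups. Of the 45 pairs 19 had an r above 0.8, and the median was 0.69. Etv4 and Etv5 were the most alike (r = 0.99), followed by Spry4 with Etv5 (0.98) and Spry4 with Etv4 (0.96). Fgf4 and Fgfr1 were the least alike (0.17). Dusp6 was closest to Spry4 (0.87), and Fgf8 to Spred1 (0.82). For 7 of the 10 genes the population with the highest mean was the same in all 3 genotypes, and the exceptions were Fgf5, Fgfr1 and Dusp6. Dusp6 was highest in ESC in WT cells and in Flk1+ cells in both mutants, where the Flk1+ and ESC samples of Sp1ΔDBD/ΔDBD overlapped and those of Sp3-/- did not.

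**Figure D5:**
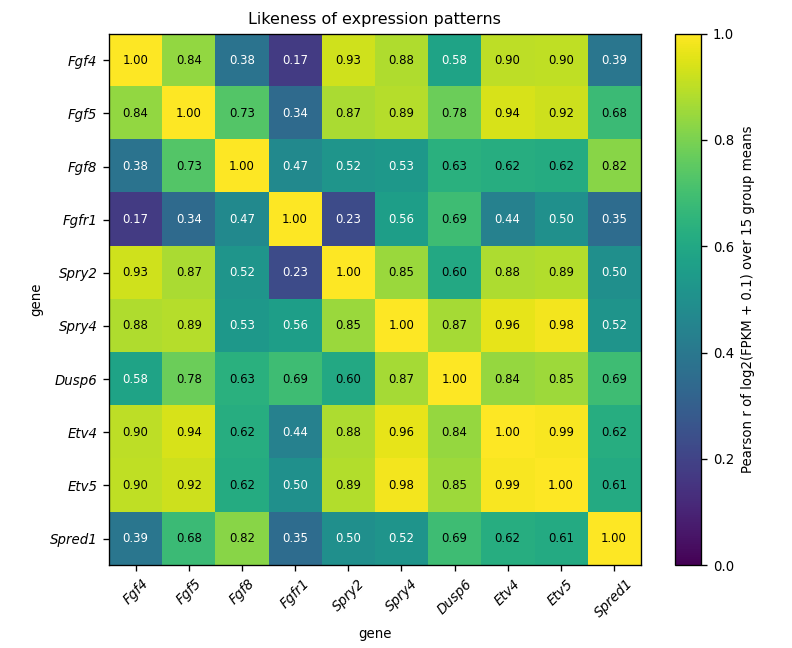
Pearson's r between the 10 genes over the 15 group means of log2(FPKM + 0.1), from dark (0) to yellow (1). Etv4, Etv5 and Spry4 form the brightest block with r from 0.96 to 0.99, and the Fgfr1 row is the darkest.

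Among the 12016 genes with a group mean above 3 FPKM in at least 1 group, the gene with the pattern most like that of each was also found. Eomes, a T-box factor of the primitive streak, was the most like Fgf8 (r = 0.98), and Otx2 the most like Fgf5 (0.98). The most like Fgf4 was Gm11627 (0.997), Fgfr1 was matched by Mapk7 (0.98), which encodes the kinase ERK5, and Spry4 by Epb41l1 (0.98). Etv4 was matched by Ldhb (0.98), Etv5 by F2rl1 (0.99), Spry2 by Mrps27 (0.95), Dusp6 by Jade2 (0.93) and Spred1 by Ttc21b (0.92). These values rest on the same 15 means and carry no test, and those of Fgf4, Fgf5 and Fgf8 again include many means near the lowest value.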

How the data were processed

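RNA-seq was analysed from 30 samples, 2 per group of 5 populations and 3 genotypes, described by the study as biological replicates. Per the study's methods, stranded, ribosomal-RNA-depleted total RNA was aligned to mm10 with HISAT2 2.1.0 and summarised with StringTie 1.3.3. The authors deposited 1 table of FPKM values per gene and sample, quantile normalised after genes that never exceeded 1 FPKM had been dropped, which makes the distribution of values alike in all samples. No counts were used here, so depth and its counting error are unknown. The log2(FPKM + 0.1) values of 14525 genes that exceeded 1 FPKM in any sample were fitted in 1 model of 15 groups using limma 3.58.1 under R 4.3.3, with Benjamini-Hochberg adjustment over all of them, 15 residual and 3.92 prior degrees of freedom. The fit was tested on simulated data. Values were tabulated with Python 3.11.15, numpy 2.4.6 and pandas 2.3.3. The 3 sorted populations of a genotype came from blast cultures that may be shared, while the fit took all samples as independent. Its p-values rest on 1 spread per gene, pooled over the replicates of all 15 groups, and not on that of the compared groups alone. Positions came from the GENCODE annotation of GRCm38, in which 14563 symbols were matched, 191 of them by an older symbol, and 122 were not. Alternatives were a pseudocount of 1, no filter, each population fitted alone, corrections for GC content and gene length (14404 genes) or for the chromosome median, replicate blocks, and leaving out each sample. The text names the 10 genes, for each the gene with the most similar pattern, and from the pathway list the called genes with the largest fold changes, at most 2 per comparison of a mutant with WT. Fgf10, Fgfrl1, Spred3, Dusp1, Dusp2, Dusp4, Dusp5, Dusp7, Frs2, Nras, Braf, Map2k1, Map2k2 and Mapk3 were named after their values were seen. The 10 genes, the pathway list and the marker lists (pluripotency, primed epiblast, primitive streak and mesoderm, endothelium, blood, cardiac muscle, fibroblast, endoderm, epithelium) were chosen with earlier results of these data known.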

Additional observations from a re-analysis of the deposited data

Results flagged for a closer look

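In 5 cases the mutants differed from each other by a limma test of the difference itself. In Flk1+ cells Fgf4 was higher in Sp3-/- than in Sp1ΔDBD/ΔDBD cells by 0.91 on the log2(FPKM + 0.1) scale (adjusted p = 0.0323), and Fgf8 by 1.69 (adjusted p = 0.0449). Dusp6 in HE1 differed by -1.03 (adjusted p = 0.0477), Spred1 in HE2 by -0.83 (adjusted p = 0.0179) and Fgfr1 in progenitors by 0.60 (adjusted p = 0.0373), as Sp3-/- minus Sp1ΔDBD/ΔDBD.

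In 3 cases the difference between Sp3-/- and WT changed with the population, by an interaction term against ESC. That of Fgf5 was larger in Flk1+ cells by 3.43 (adjusted p = 0.0249) and that of Dusp6 by 2.08 (adjusted p = 0.0310), and that of Dusp6 in progenitors differed from that in ESC by -2.18 (adjusted p = 0.0309). Each of these 8 results was lost under at least 1 alternative, as given with it above, and rests on 2 samples a group.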

How the results depend on the processing

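No alternative reversed a direction among the calls, and without a filter on low values every count was as reported. The cause of the changes below was not tested. With each population fitted alone, which leaves fewer samples to estimate the spread, 0 of the 10 genes were called in Sp1ΔDBD/ΔDBD Flk1+ cells and progenitors (2 and 2 in the joint fit), and 0 in Sp3-/- HE1, HE2 and progenitors (1, 2 and 1). Between the mutants 1 was called in ESC and 1 in Flk1+ cells (0 and 2), and 0 in HE1, HE2 and progenitors (1 each). Corrected for GC content and length of the gene, 3 were called in Sp1ΔDBD/ΔDBD Flk1+ cells, with Fgfr1 added, 2 were called in Sp3-/- HE1 and 2 in progenitors, 1 between the mutants in Flk1+ cells, 0 in HE2 and 0 in progenitors, and 1 for the Sp1ΔDBD/ΔDBD effect in progenitors against ESC (0). With the correction for the chromosome median the mutants differed in 1 gene in ESC, 1 in Flk1+ cells, 2 in HE1 and 0 in progenitors. With a pseudocount of 1, 1 gene was called in Sp1ΔDBD/ΔDBD progenitors, 2 in Sp3-/- HE1, 1 between the mutants in ESC, and 4 for the Sp3-/- effect in Flk1+ cells against ESC (2).

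Replicate numbers are shared by all groups, and a replicate block added calls among the 10 genes and lost none. The deviations of same-numbered samples over 10052 genes correlated at 0.255 to 0.481 between WT and Sp1ΔDBD/ΔDBD in the 5 populations. They correlated at 0.00318 to 0.194 between WT and Sp3-/-, and at -0.0834 to 0.182 between the mutants. The labels name no shared batch, and the main fit took no pairs across genotypes. It therefore leaves out any pairing that the WT and Sp1ΔDBD/ΔDBD samples share. Between HE1, HE2 and progenitors of a genotype the deviations correlated at 0.382 to 0.458 in WT, 0.451 to 0.649 in Sp1ΔDBD/ΔDBD and 0.0264 to 0.161 in Sp3-/-. With a replicate block within genotype, 4 genes were called in Sp3-/- HE1 and 3 in progenitors, 1, 3 and 3 between the mutants in ESC, HE1 and progenitors, 7 from WT HE1 to HE2 (4 without the block), 2 from HE2 to progenitors (1), and 1 for the Sp1ΔDBD/ΔDBD effect in progenitors. With a replicate block within population, 1 was called in Sp3-/- ESC, 3 in HE1 and 2 in progenitors, 3 and 2 between the mutants in HE1 and progenitors, and 2 for the Sp1ΔDBD/ΔDBD effect in progenitors. Dusp6 in Sp1ΔDBD/ΔDBD Flk1+ cells, not called without a block, had an adjusted p of 0.0223 with the block within genotype and 0.0203 with that within population, which makes 3 genes called there in place of 2. Dusp6 from WT HE1 to HE2 had 0.0234 and 0.0197. Over the values of single genes, the block within genotype added 18 calls and lost 0 of 270, and that within population added 15 and lost 0.

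Without single samples, where the lone sample left in a group is assumed to vary like the other groups, the counts in Sp1ΔDBD/ΔDBD ran from 0 to 2 in Flk1+ cells and 0 to 3 in progenitors. In Sp3-/- they ran from 0 to 1 in ESC, 2 to 3 in Flk1+ cells, 0 to 1 in HE1, 0 to 1 in HE2 and 1 to 2 in progenitors. Between the mutants they ran from 0 to 3 in Flk1+ cells, 0 to 1 in HE1, 0 to 1 in HE2 and 0 to 2 in progenitors, and from WT HE1 to HE2 from 1 to 3. The Sp1ΔDBD/ΔDBD effect in progenitors gave 0 to 1, and the Sp3-/- effect 0 to 2 in Flk1+ cells and 0 to 1 in progenitors. The depth behind the values is unknown, and genes at the lowest value carry no fold.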
